A study of Mus musculus with 3 samples.

Results

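The genes Egr1, Egr2, Egr3, Nr4a1, Npas4 and Arc are immediate early genes, and they were followed here across the cell classes of the neonatal mouse prefrontal cortex. They were chosen by name, 6 of the 20368 genes in the table, because earlier results of these data had shown them to differ between cell classes. Their levels and shares of positive cells are therefore given as descriptions, without a test. All 6 were detected, in between 14 cells (Npas4) and 3413 cells (Egr1) of 14192. In the genome build mm10 the annotated genes lie at chr18:34859823-34864984 on the plus strand for Egr1, chr10:67535475-67542188 (plus) for Egr2, chr14:70077203-70082614 (plus) for Egr3, chr15:101254269-101274795 (plus) for Nr4a1, chr19:4984355-4990316 (minus) for Npas4 and chr15:74669083-74672570 (minus) for Arc.

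Immediate early genes are transcribed within minutes of a stimulus, without the need for new protein synthesis, when calcium or growth factor signalling reaches factors that are already present, among them SRF with its ELK partners and CREB. Egr1, Egr2 and Egr3 encode zinc finger transcription factors, Nr4a1 encodes an orphan nuclear receptor, Npas4 encodes a transcription factor known for its induction by calcium entry in neurons, and Arc encodes a capsid-like protein known for its part in the removal of glutamate receptors from synapses. In the brain they are best known as marks of recently active neurons, but growth factors, shear stress and tissue handling also induce Egr1 and Nr4a1 in glia, vessels and immune cells.

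The libraries are 3 replicates of a single group: prefrontal cortex of mice of both sexes, taken on postnatal day 6 following inhalation of sevoflurane, a volatile anaesthetic, at about 3% on the same day. Strain, number of animals, pooling and the time between exposure and collection are not given in the sources used here, and no unexposed tissue is part of the design, so no value below measures a response to the drug. Whether each library is a separate animal is not stated either, and the spread among libraries, on which every p-value here rests, may be technical. They also describe freezing and RNA extraction rather than the preparation of single cells, and what that preparation did to these genes was not tested.

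Libraries 1, 2 and 3 held 4775, 5134 and 4283 cells, with a median of 5860.0, 5620.5 and 5558.0 depth-corrected counts and 2603, 2502 and 2508 detected genes per cell. Between 26 and 35 cell barcodes were shared by any pair of libraries and 0 by all 3. A cell was put in a class when both genes of a marker pair were above 0, which placed 10919 cells (76.9%) in exactly 1 of 8 classes. Cells in more than 1 class were dropped, 696 cells or 4.9%. Of 24 check markers that the pairs did not use, 23 were highest in their own class, the exception being Enpp6, at 1362.1 CPM (corrected counts per 1000000 of the cell) in committed oligodendrocyte precursors and 2304.6 in oligodendrocytes. The largest classes were astrocytes (3489 cells), oligodendrocyte precursor cells (OPCs, 2633 cells with Pdgfra and Lhfpl3), neuroblasts with Dlx1 and Sp9 (1813), microglia (1648) and endothelium (906). The smaller ones were committed OPCs with Bmp4 and Gpr17 (339), Cajal-Retzius cells with Reln and Ndnf (72) and oligodendrocytes with Mag and Mobp (19). Cells with the cortical excitatory neuron genes Neurod6 and Neurod2, outside the 8 classes, numbered 48, so these data say little of the mature neurons in which the 6 genes are usually studied.

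RefSeq start-site windows on GRCm38.p6 were at hand for 3 of the 6 members. They are shown because matches to motifs of CREB, EGR factors and SRF can be read directly in the letters. Capitals mark matches on either strand to the half-site of the CREB element (CGTCA, or TGACG on the other strand), to the EGR motif GCGNGGGCG and to the CArG box, the element bound by SRF. For Nr4a1 the 250 bases before the start site are given (chr15:101266596-101266845, plus strand, inside an intron of the longer annotated transcript). For Npas4 30 bases are given (chr19:4990125-4990154, minus strand, in the annotated 5′ untranslated exon) and for Egr2 30 bases (chr10:67537795-67537824, plus strand, within the introns of longer transcripts).
Nr4a1: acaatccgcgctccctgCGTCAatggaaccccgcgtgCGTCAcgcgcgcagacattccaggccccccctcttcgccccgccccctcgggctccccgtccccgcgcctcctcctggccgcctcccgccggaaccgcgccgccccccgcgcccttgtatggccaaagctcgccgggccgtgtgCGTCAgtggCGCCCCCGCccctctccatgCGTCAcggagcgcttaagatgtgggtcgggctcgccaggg
Npas4: tcgaCGTCAcgggaTGACGtcggaagtctg
Egr2: gtCCATATATGGgcagcgaCGTCAcgggta

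The Nr4a1 window held 4 CREB half-sites, a number reached by 0.231% of 32851 windows of 300 bases, and 1 EGR motif, which 5.55% of windows held. The Npas4 window held 2 half-sites, as did the Egr2 window printed in part, a number reached by 5.01% of windows. The latter also held 1 CArG box, found in 1.63% of windows. Egr2 has 5 start-site windows, and the one printed was chosen for its matches: 2 others that overlap it held the same, 1 held a CArG box and 0 half-sites, and 1 held 0 matches to any motif. At least 1 half-site was found in 20.8% of windows. The full palindrome TGACGTCA, which contains the half-site and was found in 1.79% of windows, the AP-1 motif TGANTCA (7.81%) and the NR4A motif AAAGGTCA (1.51%) were searched as well and had no match in the 3 windows printed here. These are letter matches only, and binding was not measured.

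Egr1 was the most widely detected member and, of the 8 classes, was highest in OPCs. OPCs, the dividing cells that give rise to oligodendrocytes, carried Egr1 in 66.9%, 60.5% and 67.6% of cells in libraries 1, 2 and 3, and held 49.8% of all Egr1-positive cells while making up 18.6% of the cells. Astrocytes carried it in 11.8%, 10.5% and 10.5%. The libraries of each class lay close together and the classes did not overlap. As a level, Egr1 stood at 313.0, 256.1 and 289.8 CPM in OPCs (mean 286.3 ± 28.6, SD, n = 3) and at 29.9 ± 1.19 CPM in astrocytes, a ratio of 9.59 as the mean of the ratios within libraries. On the log2(CPM + 10) scale the fitted difference was 2.89 ± 0.13 (SE), and all OPC libraries lay above all astrocyte libraries, as they did for 49.5% of the 9834 genes tested.

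**Figure D1:**
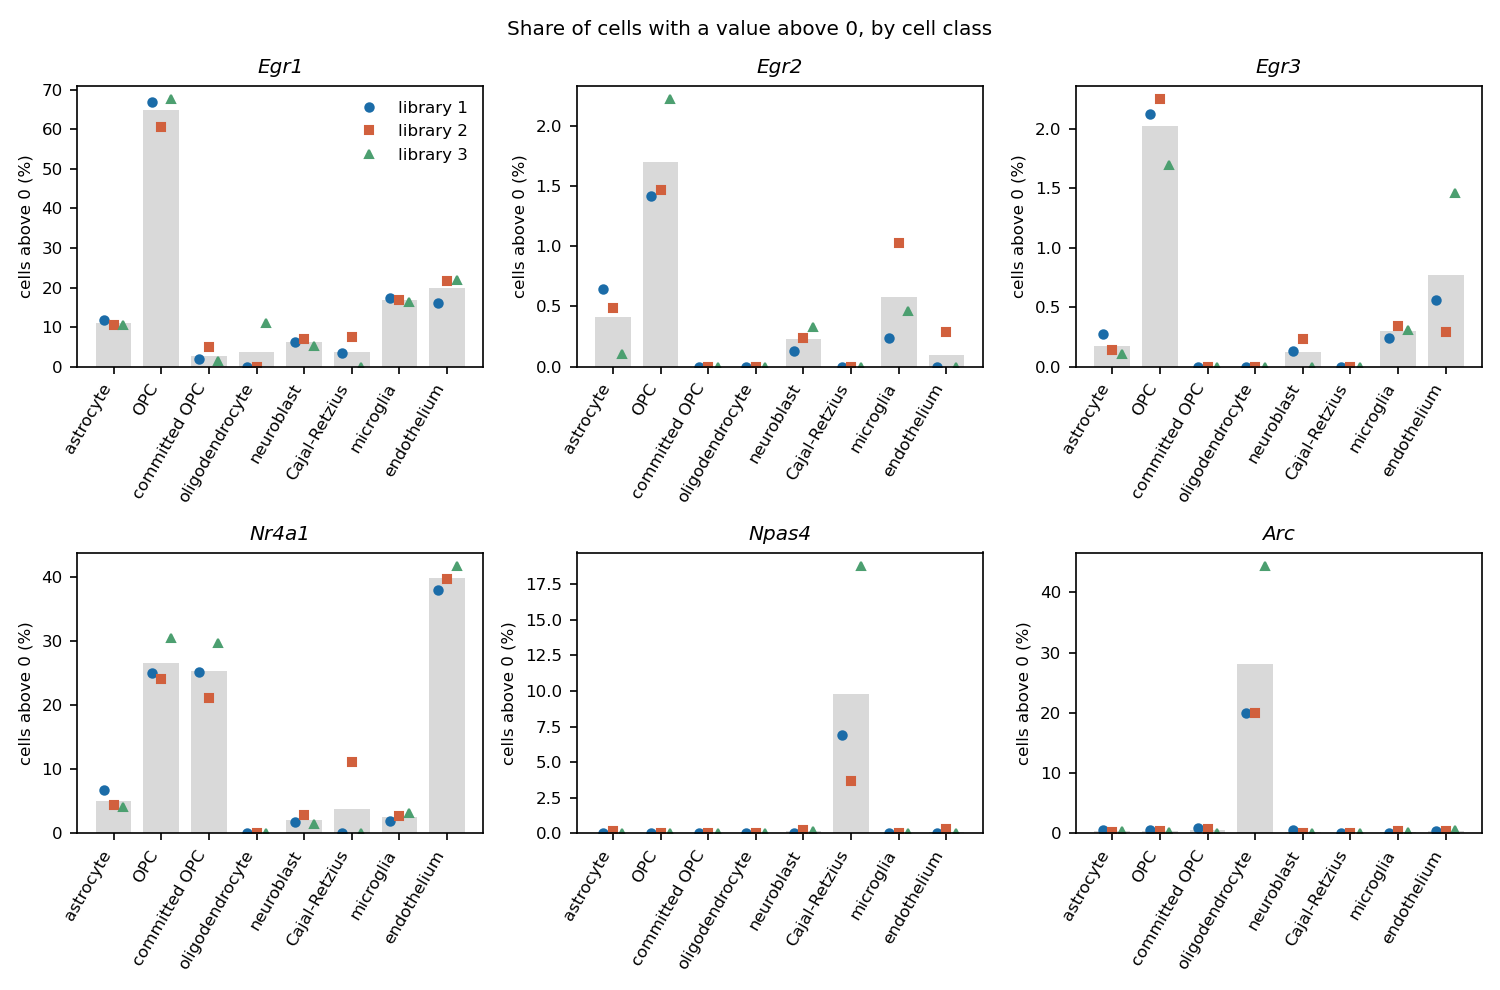
Share of cells with a value above 0 (%, vertical axis, with its own scale in each panel) for the 6 genes in 8 cell classes. Points are single libraries and bars their mean. Egr1 peaks in OPCs (60.5% to 67.6%), Nr4a1 in endothelium (37.9% to 41.7%), Npas4 in the 72 Cajal-Retzius cells and Arc in the 19 oligodendrocytes.

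Of the other 7 classes, Egr1 was next highest in the endothelium, the inner lining of the blood vessels. Its endothelial level was 56.2, 80.2 and 71.6 CPM in the 3 libraries, with library 1 the lowest. Microglia, the resident macrophages of the brain, had 48.3, 46.9 and 45.2 CPM. Neuroblasts had 14.1 ± 1.4 CPM, below astrocytes in every library, as were 45.1% of genes tested. From OPCs through endothelium, microglia and astrocytes to neuroblasts, no neighbouring classes in the order of levels overlapped. Neuroblasts, at 13.2 to 15.7 CPM, also lay above committed OPCs (2.05 to 7.84) and Cajal-Retzius cells (0 to 10.6), which overlapped each other, while the 19 oligodendrocytes (0 to 16.2) overlapped all of these. Among smaller groups outside the 8 classes, Egr1 was above 0 in 12 of 23 ependymal cells, in 46.7%, 26.3% and 52.2% of fibroblasts and in 14 of 45 smooth muscle cells. Their mean levels, 116.9 CPM in ependymal cells of 2 libraries, 160.6 ± 113.1 in fibroblasts and 154.8 ± 42.1 in smooth muscle, were above the endothelial mean of 69.3, as was that of 26 border macrophages at 79.9 ± 67.7. Erythroid cells, which should lack it, had 0 of 45, which allows a share of up to 6.67%, and 0 for each of the other members. With a median of 229 detected genes they are a shallow background.

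Committed OPCs, the next step towards myelinating cells, hardly carried Egr1. It was above 0 in 1.87%, 4.97% and 1.41% of their cells, 11 of 339 in all, at 3.31, 7.84 and 2.05 CPM. All libraries were far below the OPCs, and the OPC to committed OPC ratio within a library was 89.5 on average, with leave-one-out means of 63.6 to 117.9. The committed OPCs had the larger number of detected genes, a median of 3017 against 2642, and the part of depth in the low share was not tested. The fitted difference between committed OPCs and OPCs was -4.38 ± 0.13 in log2(CPM + 10), with all libraries below, as for 31.8% of all genes tested. The comparison of these classes was added after the members' values had been seen.

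The classes rest on marker pairs, and 154 cells carried both the OPC and the committed OPC pair and no other. These cells lay between the classes for Egr1, at 34.4%, 43.8% and 44.8%. The dropping rule therefore sets how low the committed class appears. With cells of more than 1 class kept in both, Egr1 was above 0 in 15.4% of committed OPCs, and the mean ratio of OPC to committed OPC levels fell to 4.47.

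**Figure D2:**
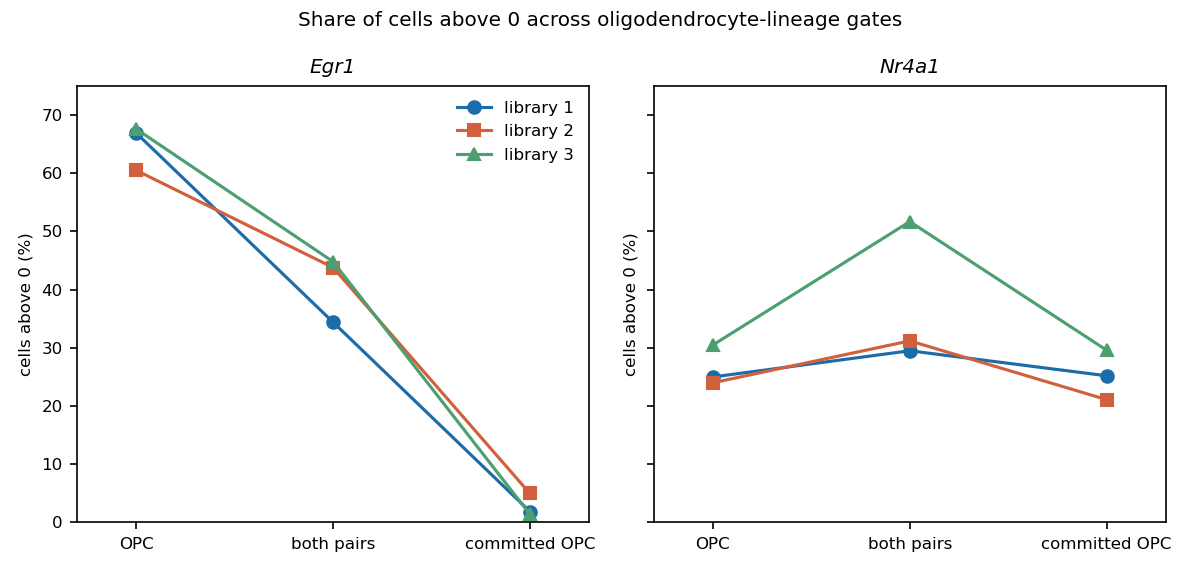
Share of cells above 0 for Egr1 (left) and Nr4a1 (right) in OPCs, in cells carrying both the OPC and the committed OPC pair, and in committed OPCs. Lines join the points of a library. Egr1 steps down from over 60% to under 5% in every library, while Nr4a1 in committed OPCs (21.1% to 29.6%) overlaps its share in OPCs (24% to 30.5%).

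Nr4a1 was largely kept where Egr1 was nearly absent. It was above 0 in 25%, 24% and 30.5% of OPCs and in 25.2%, 21.1% and 29.6% of committed OPCs, and these ranges overlapped. Its level was 58, 56 and 66.9 CPM in OPCs and 47, 39.4 and 53 CPM in committed OPCs, with a fitted difference of -0.32 ± 0.14. The levels did not overlap, all committed OPC libraries lying slightly below all OPC libraries, as for 31.8% of genes tested. In the 154 cells carrying both pairs it was above 0 in 29.5%, 31.2% and 51.7%, with library 3 the highest on 29 cells. Oligodendrocytes had 0 of 19, which allows a share of up to 15.8%. Egr1 and Nr4a1, both called immediate early genes, therefore differed in the size of their fall from OPCs to committed OPCs.

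Nr4a1 was highest in the endothelium, where it was above 0 in 37.9%, 39.6% and 41.7% of cells, at 92.4, 106.6 and 112.3 CPM (mean 103.8 ± 10.2, n = 3). Endothelial cells made up 6.38% of all cells and 21.5% of the Nr4a1-positive ones, and OPCs 41.6% of them. Astrocytes stood at 14.9, 8.37 and 7.2 CPM, with library 1 the highest. The endothelial to astrocyte ratio within a library was 11.5 on average and the fitted difference 2.51 ± 0.14, with every library higher in the endothelium, as for 32.7% of genes tested. Microglia (5.54 ± 1.92 CPM) and neuroblasts (3.81 ± 1.16) were the lowest of the larger classes. Microglia thus had more Egr1 and no more Nr4a1 than astrocytes, at fitted differences of 0.51 ± 0.13 and -0.36 ± 0.14. Astrocyte and microglial libraries overlapped for Nr4a1 and were apart for Egr1, as for 26.4% of genes tested. The relatives of Nr4a1 followed it only in part. Nr4a2 was above 0 in 16.4 ± 1.29% of endothelial cells and 3.6 ± 0.363% of astrocytes, but in only 2.38 ± 0.714% of OPCs. Nr4a3 was above 0 in 1.22% of OPCs, 0.207% of committed OPCs, 0.514% of endothelial cells and 0.611% of astrocytes.

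**Figure D3:**
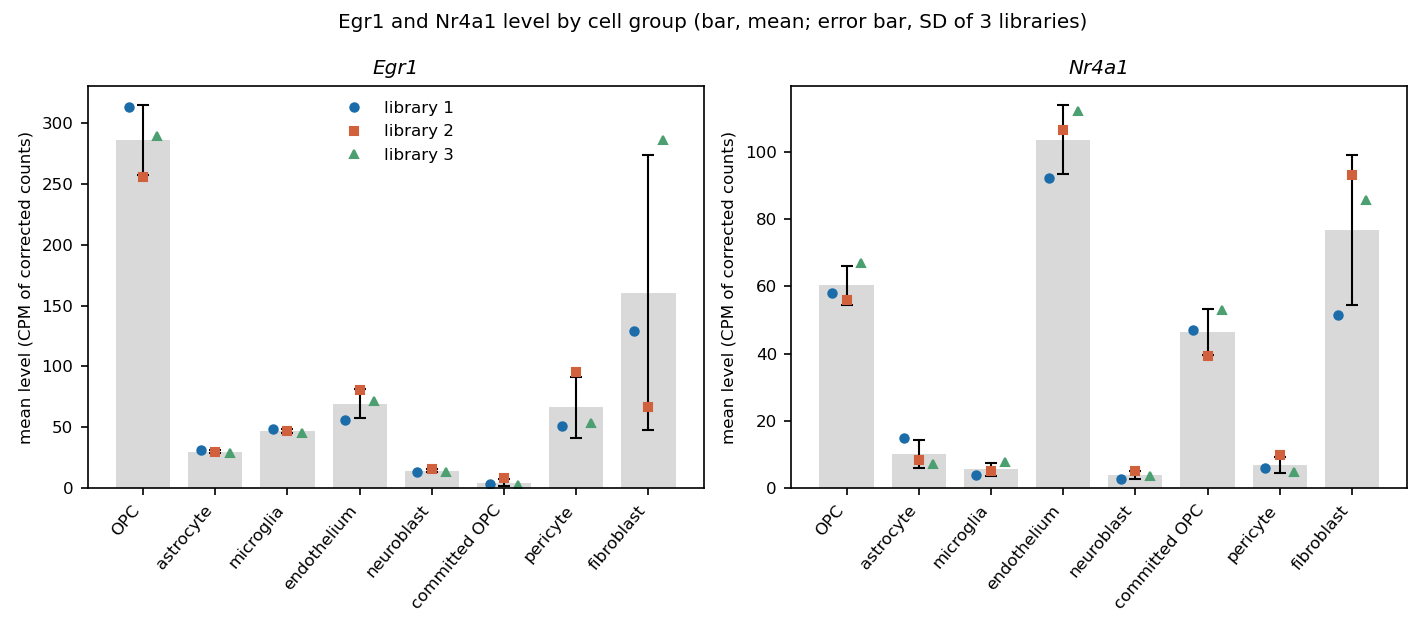
Mean level of Egr1 (left) and Nr4a1 (right) in CPM of corrected counts for the 6 fitted classes and for pericytes and fibroblasts. Bars are means, error bars the SD of 3 libraries and points the libraries. Egr1 is highest in OPCs at 286.3 CPM and Nr4a1 in endothelium at 103.8 CPM, and the fibroblasts, 72 cells, have a wide spread.

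Within the endothelium both genes were highest in cells with arterial genes. Arterial cells, with at least 2 of Gkn3, Sema3g, Bmx and Gja4, numbered 12, 18 and 18, and Nr4a1 was above 0 in 75%, 83.3% and 72.2% of them. In the venous cells, with at least 2 of Slc38a5, Nr2f2 and Vwf, it was above 0 in 41%, 46.1% and 45.1%, and in cells of none of the sets in 29.7%, 29% and 35%. As a level, Nr4a1 was 354.7, 500.0 and 307.5 CPM in arterial cells and 92.6, 97.9 and 101.8 CPM in venous cells. Egr1 was above 0 in 50%, 44.4% and 38.9% of arterial cells and in 19.7%, 24.2% and 25.5% of venous ones. The arterial and venous ranges did not overlap for either gene, although the arterial cells were only 48. How many of all genes separate these subgroups was not counted, so the gap cannot be called particular to Egr1 and Nr4a1. Tip cells were 17 and gave no stable share.

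Dividing OPCs, those with Mki67 and Top2a, were like the other OPCs in the share of Egr1-positive cells but not in its level. Egr1 was above 0 in 60.2%, 64.5% and 66% of dividing OPCs and in 67.7%, 59.8% and 67.9% of the others, which overlapped. Its level was lower in the dividing ones, 202.2 ± 18.1 CPM against 298.3 ± 32.6, without overlap. The share of all genes that separate these groups was not counted. The dividing OPCs had a median of 3476 detected genes and the others 2579, and the part of this was not tested. In neuroblasts Egr1 was more frequent in dividing cells, at 9.48%, 10.8% and 15.9%, than in the rest, at 4.8%, 5.24% and 3.85%. The dividing neuroblasts had a median of 2863.5 detected genes and the rest 1735.0, and the part of this in the share was not tested. Dividing cells were also higher without overlap in endothelium (22% to 28.3% against 15.3% to 21.6%) and microglia (17.6% to 22.8% against 14.8% to 17.3%). In astrocytes the ranges overlapped (10% to 24% against 10.3% to 11.5%). How many of all genes separate dividing from other cells in these classes was not counted. Among microglia, cells with Spp1 and Gpnmb, genes of a phagocytic state in developing white matter, had Egr1 in 3 of 78 cells, compared with 18%, 18.3% and 16.3% of the other microglia. Of those 78 cells, 63 came from library 2.

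Egr2 and Egr3, relatives of Egr1 that bind the same motif, were each above 0 in 91 cells (0.641%). Egr2 was found in 12, 15 and 17 OPCs (1.42%, 1.47% and 2.22%), which were 48.4% of its positive cells. Egr3 was found in 18, 23 and 13 OPCs (2.13%, 2.25% and 1.7%), 59.3% of its positive cells. OPCs, 18.6% of all cells, thus held the most positive cells of any class for both genes. In committed OPCs each was above 0 in 0 of 339 cells, which allows a share of up to 0.885%. Elsewhere Egr2 was seen in 15 astrocytes and 10 microglia and Egr3 in 6 astrocytes and 6 endothelial cells. Egr1 was above 0 in 35 of the 44 Egr2-positive OPCs and 43 of the 54 Egr3-positive ones, where 1701 of all 2633 OPCs carried it. Egr3 in OPCs of library 1 was no more frequent with Egr1 (2.12%) than without (2.14%). In classes with less Egr1, it was above 0 in 14 of the 15 Egr2-positive astrocytes and all 6 Egr3-positive endothelial cells.

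Npas4 was the rarest member, with 14 positive cells. Cajal-Retzius cells, early-born neurons of the outermost cortical layer that secrete reelin, held 6 of them, 42.9%, while making up 0.507% of all cells. Npas4 was above 0 in 2 of 29, 1 of 27 and 3 of 16 Cajal-Retzius cells. These shares of 6.9%, 3.7% and 18.8% have exact (Clopper-Pearson) 95% intervals of 0.846% to 22.8%, 0.0937% to 19% and 4.05% to 45.6%, which cover counting error only. In OPCs it was above 0 in 0 of 2633 cells, which allows up to 0.114%, and in microglia in 0 of 1648, up to 0.182%. Astrocytes and neuroblasts had 2 positive cells each and endothelium 1. The Cajal-Retzius cells had the most detected genes of the 8 classes, a median of 3334.5, and the part of depth in their share was not tested. The same cells carried Egr1 in 3 of 72 and Arc in 0, so the neuronal class with Npas4 did not stand out for the other members.

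Arc was above 0 in 52 cells, 0.366% of the total, and library 1 held the largest share, 0.545% compared with 0.273% and 0.28%. The class with the highest share was the smallest one, the Mag and Mobp oligodendrocytes: 1 of 5, 1 of 5 and 4 of 9 cells. Pooled over libraries that is 31.6%, with an exact 95% interval of 12.6% to 56.6% for counting error only. Each of the 6 cells had a corrected count of 1. Oligodendrocytes were 0.134% of all cells and 11.5% of those with Arc. The other positive cells were scattered over astrocytes (11), OPCs (9), cells of no class (10) and others, and 3 ependymal cells in library 1 were among them. The 48 cells of the excitatory lineage had 0.

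Where Egr1 was detected, Nr4a1 was detected more often, to a degree that differed between classes as described here without a test. In astrocytes Nr4a1 was above 0 in 21.1%, 17.9% and 10.9% of Egr1-positive cells and in 4.79%, 2.8% and 3.25% of Egr1-negative cells, a mean ratio of 4.72. In endothelium the shares were 50.9%, 72% and 73.3% with Egr1 and 35.4%, 30.6% and 32.9% without, a ratio of 2.01. In OPCs they were 28.1%, 27.5% and 32.6% with Egr1 and 18.6%, 18.6% and 26.2% without, a ratio of 1.41. Positive cells were the higher in each of these classes and libraries. Detected genes moved with this in the glia, with a median of 3061 against 2773 in astrocytes of library 1 and 2706 against 2613 in OPCs, but hardly in endothelium, at 2879 against 2904. Among cells above the median of detected genes the ratio was 4.72 in astrocytes, 1.84 in endothelium and 1.23 in OPCs. At or below the median it was 4.41, 2.24 and 1.51.

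**Figure D4:**
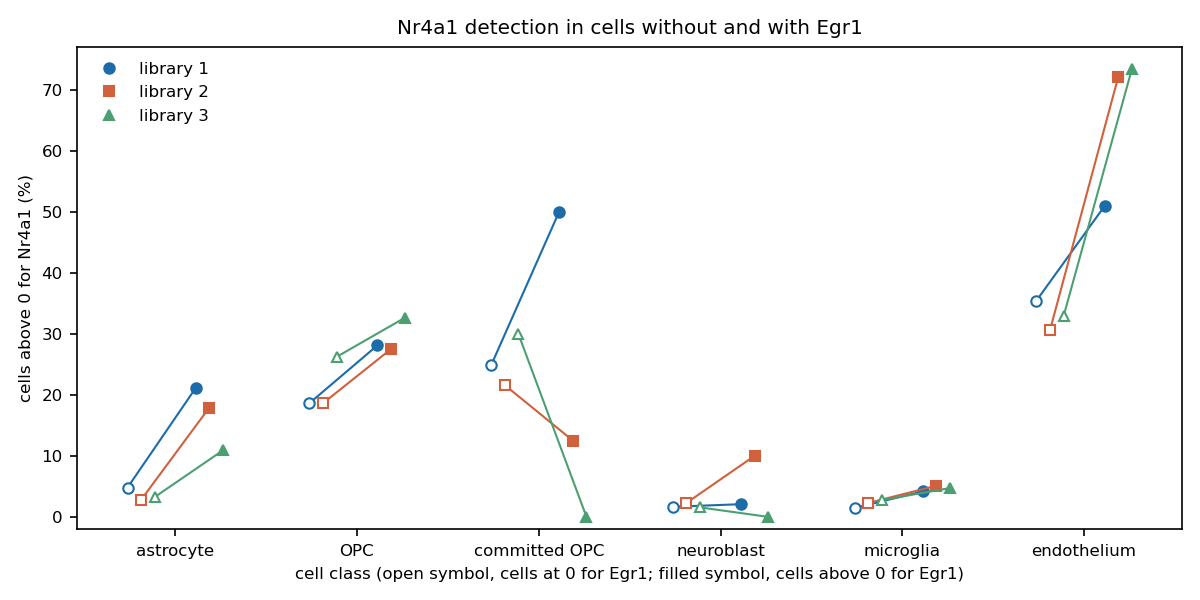
Share of cells above 0 for Nr4a1 (%, vertical axis) in cells at 0 for Egr1 (open symbols) and above 0 for Egr1 (filled), by class, with lines joining the points of a library. The filled points lie higher in every library for astrocytes, OPCs, microglia and endothelium, and those of committed OPCs rest on 11 Egr1-positive cells in all.

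Genes detected in at least 5% of a class served as the background, and Nr4a1, above 0 in 5.02% of astrocytes, just reached that share. It was near the top in astrocytes, where 0.0214% of 9341 genes, Nr4a1 itself included, had as high a ratio with Egr1. The share was 0.494% of 8912 genes in endothelium and 3.8% of 9516 in OPCs. Taken the other way, as the ratio of Egr1 with and without Nr4a1, it was 0.0214% in astrocytes, 0.0673% in endothelium and 24.3% in OPCs. In OPCs that ratio was 1.16. It cannot rise far there, because Egr1 was above 0 in 65% of OPCs. Its rank among rarer genes therefore cannot decide whether the pair stands apart in OPCs. In astrocytes the 5 genes with the highest ratios were Socs3, a feedback inhibitor of cytokine signalling, at 6.02, then Nr4a1, Junb at 4.34, Ier2 at 3.68 and Fos at 3.08. In OPCs Fos led with 2.36. In endothelium the genes that went most with Nr4a1 were Cbln2, Vegfc, a growth factor for vessels, Fbln2, Hacd4 and Sgpp2. These leading genes were picked after their values were seen. Of the listed rapid early genes that reached that share, 9 of 12 in astrocytes, 7 of 12 in OPCs and 15 of 18 in endothelium were more frequent with Egr1 in every library. Of all genes that reached it, 36.4%, 40.4% and 16.6% were.

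The other genes of the same pathways were compared between classes with limma over 9834 genes, with Benjamini-Hochberg adjustment at 0.05. Of 72 listed genes 52 were tested, and only Egr1 and Nr4a1 of the members had the mean of 10 CPM that the test required. A gene can meet that mean through a single class in which it is high. The 4 planned comparisons share their astrocyte values, and differences are given in log2(CPM + 10). Of all genes, 59.3% passed between OPCs and astrocytes, 39.7% higher and 19.6% lower in OPCs, or 30% and 25.7% with each value centred on the median gene.

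OPCs were not high for early genes in general. Of 16 rapid early genes tested, 4 were higher than in astrocytes, 8 were lower and 4 did not pass, with a median difference of -0.29 and 0.15 over all genes. Fos, the partner of Jun in the AP-1 factor, was lower in OPCs, at 60.9 against 186.5 CPM (-1.45 ± 0.21, adjusted p = 9.21e-06), and Sgk1, a kinase induced by serum and steroids, was higher (2.53 ± 0.13, adjusted p = 6.97e-12). Some feedback inhibitors of the ERK pathway, a growth factor pathway, were also higher. Spry4 stood at 133.1 against 8.37 CPM (2.96 ± 0.15, adjusted p = 5.26e-12), Spry1 was higher by 2.93 (adjusted p = 3.99e-12) and the ERK phosphatase Dusp6 by 1.37. In that list 4 of 8 were higher (3 after centring), 1 lower and 3 did not pass, with a median of 0.31. Spry4, counted among the 4, had 1.24 to 12.8 CPM in the other fitted classes and met the required mean through OPCs. Its call was thus favoured by the filter and is no support. Of all genes 39.7% were higher (30% after centring), so the count for the list was near the share over all genes.

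Of the partners of EGR and SRF, 0 of 5 were higher in OPCs and 1 was lower, the SRF partner Elk3 at -0.29 (adjusted p = 0.0453), a call lost under 6 of the alternatives tried. Late activity genes of neurons were higher for 6 of 9 and lower for 3, with Lingo1 at 2.35 and Gadd45g at -2.77. CREB targets and regulators gave 2 higher, 2 lower and 4 that did not pass, or 0, 4 and 4 after centring. Nfil3 was at 0.51 (adjusted p = 0.0279, lost under 4 alternatives) and Per1 at -0.70. Heat shock genes, which mark protein stress, were higher for 4 of 6, among them Hsph1 at 0.79 and Hsp90aa1 at 0.74.

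The ERK feedback genes, like Egr1, were mostly lower in committed OPCs. Of 8 tested, 7 were lower than in OPCs and 0 higher, with a median difference of -1.96, where 53.8% of all genes passed, 30.1% lower and 23.7% higher, and the median was -0.04. Dusp6 was at 8.95 CPM in committed OPCs and 199.0 in OPCs (-3.48 ± 0.10, adjusted p = 7.41e-15), and Spry4 at 5.14 and 133.1 (-3.24 ± 0.15, adjusted p = 2.84e-12). Spry4, counted among the 7, met the required mean through OPCs, so its lower call was favoured by the filter and is no support. The exception, the phosphatase Dusp2, was weakly expressed and did not pass (0.17, adjusted p = 0.133). Rapid early genes were lower for 9 of 16, higher for 2 and not past the threshold for 5, with Cyr61 at -2.66 and Ier2 at -2.63 the furthest. Sgk1 went the other way, at 636.7 against 104.4 CPM (2.48 ± 0.13, adjusted p = 1.77e-11).

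Of the partners of EGR and SRF, 1 of 5 was higher in committed OPCs and 2 were lower, Elk3 at -1.21 and Nab1, a co-repressor of EGR factors, at -0.51. Late activity genes were higher for 2 of 9 and lower for 5, with Nptx2 (-2.81) and Plk2 (-2.01) the furthest. CREB targets and regulators were higher for 3 of 8 and lower for 2, with Nfil3 at 1.40 and Pim1 at -0.99. Heat shock genes were higher for 1 of 6, Hsph1 at 0.67, and lower for 2, among them Hsp90aa1 at -0.43.

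**Figure D5:**
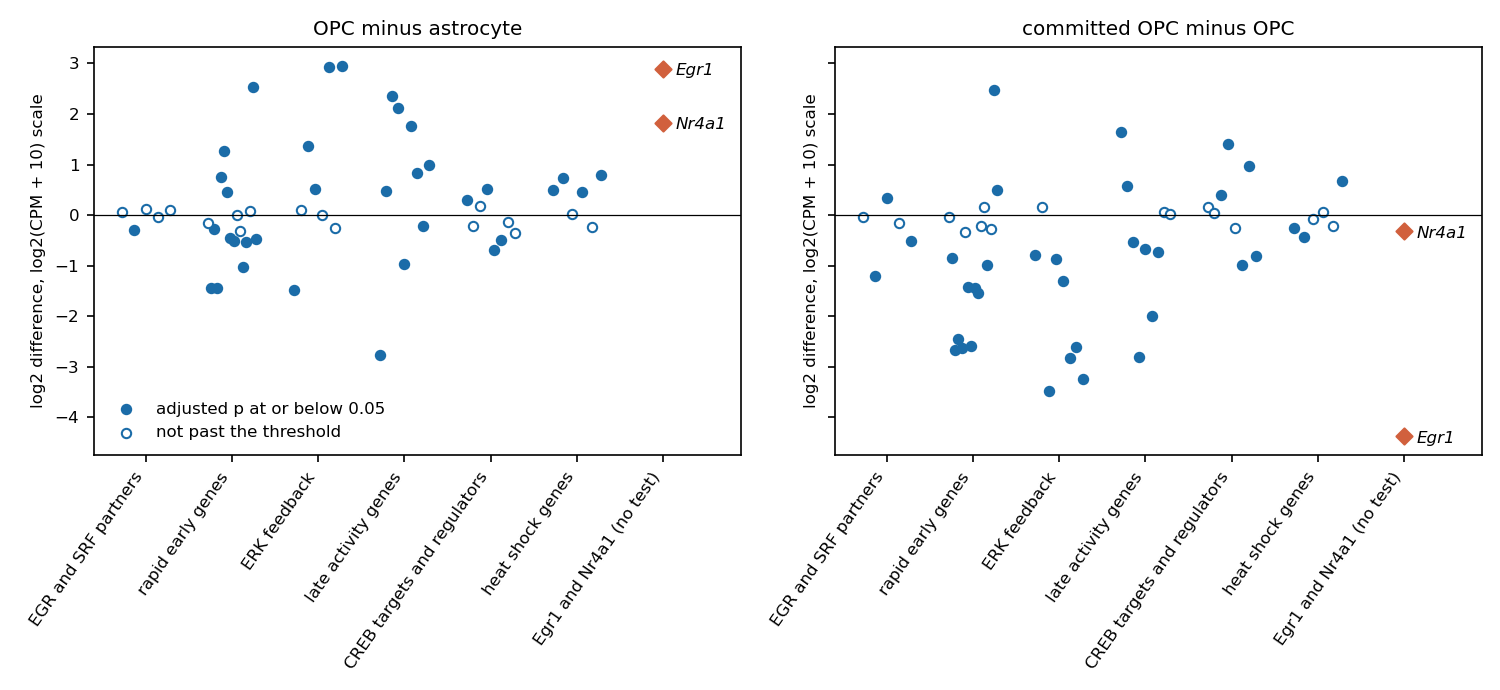
Differences in log2(CPM + 10) of the listed genes, by list, for OPCs minus astrocytes (left) and committed OPCs minus OPCs (right). Filled circles passed the test, open circles did not, and diamonds are Egr1 and Nr4a1, shown without a test. Of the 8 ERK feedback genes, 7 lie below 0 and passed in the right panel, where Egr1 is at -4.38 and Nr4a1 at -0.32. The 7 include Spry4, whose calls in both panels were favoured by the filter on the mean.

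The endothelium, where Nr4a1 was highest, was high for nearly all rapid early genes. Of 16 tested, 15 were higher than in astrocytes and 1, Fos, did not pass (0.25, adjusted p = 0.288), with a median of 2.96 compared with -0.13 over all genes, of which 72.5% passed, 29.6% higher and 42.9% lower (37.1% and 34.7% after centring). Klf2, a factor induced by flow in vessels, led with 6.92 ± 0.19 and was above 0 in 95.2% of endothelial cells, and Sgk1 followed with 4.68. Of the EGR and SRF partners 4 of 5 were higher, Elk3 by 2.88 and Mkl2 by 2.70. ERK feedback genes were higher for 4 of 8 (6 after centring), with the phosphatases Dusp1 at 4.09 and Dusp2 at 3.09, and lower for 2, Spry2 at -2.94 and Spred1 at -2.54. Of 9 late activity genes 2 were higher and 6 lower, with Plk2 at 4.6 and Nrn1 at -2.21. CREB targets and regulators were higher for 6 of 8 and lower for 2, led by Sik1 (2.52) and Pim1 (2.15). Heat shock genes were higher for 3 of 6 and lower for 3, with the small heat shock protein gene Hspb1 at 4.51 and Dnajb1 at 0.92. Some counted genes were high mainly in endothelium, and the filter on the mean may have favoured their calls. The early gene Maff, for example, had 103.6 CPM there, 3.41 in astrocytes and 7.04 in microglia.

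In microglia 12 of 16 rapid early genes were higher than in astrocytes and 2 lower, where 74.3% of all genes passed, 23.9% higher and 50.4% lower. After centring these were 40.1% and 32%, and the early genes 12 higher and 1 lower. Ier5 (2.74) and Ier3 (2.44), both rapidly induced by growth factors and stress, were the furthest. Of the ERK feedback genes 3 were higher and 4 lower (4 and 4 after centring), with Spry2 at -3.76 and Dusp2 at 1.51. Late activity genes were higher for 1 of 9, Rgs2 at 3.72, and lower for 7, among them Nrn1 at -1.96. EGR and SRF partners were higher for 1 of 5, Elk3 at 1.76, and lower for 3, with Elk1 at -0.91, a balance that turned to 2 higher and 1 lower after centring. CREB targets and regulators were higher for 2 of 8 and lower for 3, which turned to 4 and 3 after centring, with Tiparp at -1.12 and Crem at -0.80 the furthest. Heat shock genes were higher for 4 of 6 and lower for 1, Hsph1 at -0.84. Hspa1a, the inducible heat shock gene, was higher by 3.53 ± 0.21. It was above 0 in 24.4 ± 6.47% of microglia, compared with 1.99% of astrocytes, 2.04% of OPCs and 5.2% of endothelial cells. With 155.9 CPM in microglia and 1.03 to 13.6 in the other fitted classes, it met the required mean through microglia. Its call, counted among the 4, was thus favoured by the filter and is no support. The part of Hspa1a in the early gene values of microglia was not tested.

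Neuroblasts, young interneurons, were lower than astrocytes for Fos and most of the ERK feedback genes. Of 16 rapid early genes 3 were higher than in astrocytes, 7 lower and 6 did not pass, where 71.5% of all genes passed, 29.9% higher and 41.6% lower. After centring these were 44.7% and 30%, and the early genes 4 higher and 6 lower. Fos (-3.01) and Cyr61 (-2.94) were the furthest, and of 8 ERK feedback genes 5 were lower and 1 higher (5 and 3 after centring), with Spry2 at -2.62 and Dusp6 at -2.19. EGR and SRF partners were higher for 1 of 5 and lower for 4 (1 and 2 after centring), with Elk3 at -1.06 and Mkl2 at -0.63. Late activity genes were higher for 3 of 9 and lower for 5, which turned to 4 and 3 after centring, with Syt4, a vesicle protein of neurons, at 1.79 and Nrn1 at -2.19. CREB targets and regulators were higher for 4 of 8 and lower for 2, with Nfil3 at 1.28 and Per1 at -1.22, and heat shock genes were higher for 4 of 6, with Hsp90aa1 at 1.90 and Hspa8 at 0.53. The neuroblasts had a median of 1866 detected genes, the fewest of the fitted classes, compared with 2765 in astrocytes.

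The genes whose level across the 6 fitted classes was most like that of Egr1 were Map3k1 (r = 0.949), Trib1 (0.944), Inpp4b (0.875), Pmp22 (0.860) and Camkk2 (0.852). For Nr4a1 they were Mfsd2a (r = 0.980), a lipid transporter of the blood-brain barrier, Smyd2 (0.971), Ptprk (0.966), Arl4a (0.961) and Agfg1 (0.960). Pearson's r was taken over 18 class means from 3 libraries, which share their cells and are not independent, so it serves as a measure of likeness only. Map3k1, a kinase of the stress-activated pathways, had 108.5 CPM in OPCs, 66.2 in endothelium and 10.1 in committed OPCs. Mfsd2a had 1080 CPM in endothelium, 443.6 in OPCs and 198.3 in committed OPCs.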

How the data were processed

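The submitters' processing notes name CASAVA 1.8, Cell Ranger, Seurat and the build mm10. The authors deposited natural log values, each ln(1 + a whole number) within a tolerance of 1e-06. The whole numbers sum to 4422 to 8135 per cell, while 121 to 4213 genes are detected, so they are read as depth-corrected counts. The correction, raw depth and cell filters are not given in the sources used here. No count model was fitted.

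Corrected counts of each cell were scaled to CPM and averaged per class and library, with corrected sums of 24612481 to 29581504 per library. limma 3.58.1 (R 4.3.3, trended variance) was run on log2(mean + 10 CPM) of the 6 classes that had 20 or more cells per library (18 values, library as a block because every class comes from every library, 10 residual degrees of freedom). Tested genes averaged 10 CPM or more across classes, and the adjusted p threshold was 0.05 by Benjamini-Hochberg over all genes tested. The added 10 CPM draws differences of weakly expressed genes towards 0. The fit was tried on data simulated with independent noise of its own fitted spread. Such data cannot show how the calls hold if the libraries are technical replicates. SDs are over 3 libraries. For a count of 0 the upper limit of a share is 3 divided by the cells.

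The members, lists, markers and rules were chosen with earlier results of these data known. Named are the members, the 2 genes of each list with the largest difference past the threshold in each comparison, and the 5 genes most like Egr1 and Nr4a1. Further genes and the subgroup and co-detection genes named beside them were chosen after their values were seen. Doublets were treated through the class rule, and calls by Scrublet in scanpy 1.11.5 (133, 101 and 104 cells) were removed only as an alternative. Gene positions are from GENCODE M21.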

Additional observations from a re-analysis of the deposited data

How the results depend on the processing

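Counts of listed genes past the threshold stayed within 1.5 times under all 50 alternatives. Without the replicate block, the libraries being the same in every class, limma called 47 listed genes in endothelium, 43 in microglia, 40 in neuroblasts and 33 in OPCs against astrocytes and 35 in committed OPCs against OPCs, where 47, 43, 40, 35 and 36 were called with it. Centring on the median gene, which moved the median of all genes in microglia from -0.27 to 0.09, changed the split of higher to lower from 23 and 20 to 28 and 16 in microglia, from 16 and 24 to 20 and 18 in neuroblasts and from 20 and 15 to 16 and 19 in OPCs. With only the classes compared in the fit, OPCs had 43 calls. Of the named genes, Elk3 and Nfil3 in OPCs against astrocytes lost their calls under 6 and 4 alternatives.

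Leaving out 1 library in turn gave 42 to 48 calls in endothelium, 40 to 43 in microglia, 36 to 39 in neuroblasts, 27 to 37 in OPCs and 33 to 36 in committed OPCs. Shares ranged from 63.7% to 67.2% for Egr1 in OPCs, 10.5% to 11.1% in astrocytes and 1.64% to 3.42% in committed OPCs, and for Nr4a1 from 24.5% to 27.8% in OPCs, 23.2% to 27.4% in committed OPCs and 38.7% to 40.7% in endothelium. Npas4 in Cajal-Retzius cells ranged from 5.3% to 12.8% and Arc in oligodendrocytes from 20% to 32.2%. Mean within-library ratios of Egr1 levels ranged from 9.33 to 10.1 (OPC to astrocyte) and from 63.6 to 117.9 (OPC to committed OPC), those of Nr4a1 to astrocytes from 5.29 to 7.99 in OPCs and from 9.47 to 14.2 in endothelium, and co-detection ratios from 1.36 to 1.5 in OPCs, 3.88 to 5.4 in astrocytes and 1.83 to 2.29 in endothelium.

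A corrected count of at least 2 as detection lowered Egr1 to 40% in OPCs, 3.74% in astrocytes and 0% in committed OPCs, Nr4a1 to 5.67% in OPCs, 4.26% in committed OPCs and 15% in endothelium, Npas4 in Cajal-Retzius cells to 1.23% and Arc in oligodendrocytes to 0%. It moved the co-detection ratio to 2.24 in OPCs, 3.69 in endothelium and 106.9 in astrocytes, where few cells remain. Thinning each cell to a sum of 4000 gave Egr1 in 55.3% of OPCs and 8.25% of astrocytes, and Nr4a1 in 19.7% of OPCs, 17% of committed OPCs and 27.8% of endothelial cells. Keeping cells of more than 1 class gave Egr1 in 12.6% of astrocytes and 15.4% of committed OPCs, with level ratios of 7.93 (OPC to astrocyte) and 4.47 (OPC to committed OPC). Without scaling of cells the OPC to astrocyte ratio of Egr1 was 8.41. A stricter endothelial gate gave Nr4a1 in 41.8%, and OPCs above the median of detected genes gave a co-detection ratio of 1.23. The cause of these shifts was not tested. The Npas4 and Arc shares rest on 6 cells each, and a count of 1 is the smallest the data can hold, so neither can be ordered against other small classes.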
